A study of Caenorhabditis elegans with 36 samples.

Results

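Simple, low-complexity and satellite repeats were examined in small RNA and long RNA of the worm Caenorhabditis elegans, in wt animals and in mutants of nip1, nip2 or nip3, in a study of candidate factors in inherited RNA silencing. The families were taken by name from the repeat tables, as every row whose name holds Simple_repeat, Low_complexity or Satellite. There were 115 such families of 403 in all, 90 of them simple repeats, 3 low-complexity and 22 satellites, and the other 288 rows were transposable element families. The 36 libraries came from worms grown at 20 °C on HB101 bacteria. Young adult small RNA came from 2 wt, 3 nip2nip3 and 3 nip3_qe17 libraries of whole animals. Embryo small RNA came from mixed-stage early embryos, with 2 wt and 2 nipnip2 libraries each for the input and for an immunoprecipitation (IP) of FLAG-tagged NRDE-3. Young adult RNA-seq comprised 3 libraries each of wt, nip2_nip3, nip3_qe17, nip2_tb1609 and nip1_nip2_nip3, 2 each of nip3_qe20 and nip1_tb1601, and 1 of nip1_nip2. Of the wt inputs, 1 has another source name than the other embryo libraries, whole animal, and no mention of the tag. Which genes carry the nip names is not given by the labels, nor is how nipnip2 was built or whether replicates were separate cultures. P-values therefore measure the spread between these libraries, which may be technical. In these bulk samples, fewer cells of a type and less RNA per cell cannot be told apart.

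Simple repeats are tandem runs of a short unit, satellites are tandem arrays of a longer unit, and low-complexity tracts have a skewed base composition. In worms, RNA-dependent RNA polymerases copy target transcripts into antisense small RNAs that are loaded onto Argonaute proteins. NRDE-3 is the Argonaute that carries such small RNAs into the nuclei of somatic cells. Chromosome ends carry arrays of the unit TTAGGC, and runs of the same unit also lie inside worm chromosomes. Low-complexity and tandem sequences give reads that match many places, so a value here belongs to a family and cannot be assigned to one of its copies.

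The 115 families had 6779 annotated copies covering 1405146 bases of the ce11 assembly, 4509 of them satellites, 2256 simple repeats and 14 low-complexity tracts. Of these copies, 60.6% overlapped the span of a gene in the RefSeq annotation and 55.8% that of a protein-coding gene. These overlaps are with whole gene spans, and exons and introns were not told apart. Repeat counts ran from 364063 to 714418 per adult small RNA library, 69811 to 119359 in embryo input, 89756 to 159047 in the IP and 50405 to 99573 in RNA-seq. The families examined held 4987 to 10124, 11508 to 26726, 20767 to 34709 and 3026 to 43192 of these counts.

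A simple repeat family is named by its unit, so the names below are also the sequences that carry the results. The embryo results rest on 3 pairs of units, in which 1 unit is the reverse complement of the other up to its starting base. The 3-base pair is (TCG)n with (CGA)n, the 4-base pair is (TCCA)n with (TGGA)n, and the 5-base pair is (GATTG)n with (CAATC)n. A pair is thus the same repeat read in opposite orientations. The telomere unit appears as (TTAGGC)n and as its reverse complement (GCCTAA)n, and (CCCCAG)n is a 6-base unit that leads the RNA-seq counts. Satellites are named only, since no genome sequence was used here.

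The families held a very different share of the repeat counts in each kind of library. The adult small RNA shares were 1.72% and 1.63% of the repeat counts for wt. For nip2nip3 they were 1.16%, 1.33% and 1.27%, and for nip3_qe17 1.37%, 1.45% and 1.45%. Every mutant library lay below both wt libraries, and every nip2nip3 library lay below every nip3_qe17 library. Means were 1.67% ± 0.0688 (SD, n = 2) in wt, 1.25% ± 0.0849 (SD, n = 3) in nip2nip3 and 1.42% ± 0.0461 (SD, n = 3) in nip3_qe17. Both comparisons with wt gave the smallest p the design allows, 0.2 (two-sided exact permutation test), as did that between the mutants, 0.1, and over the 13 share comparisons made the adjusted p was 0.433 for each. In embryo input the share was 20.0% and 23.3% in wt and 14.0% and 16.5% in nipnip2. In the IP it was 23.1% and 21.8% in wt and 24.5% and 22.9% in nipnip2, so the genotypes overlapped in the IP but not in the input. The smallest p here is 0.333 (two-sided exact permutation test), which the input comparison and the comparison of IP with input in nipnip2 embryos reached.

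In RNA-seq the share ran from 3.86% to 50.4% over the 20 libraries, and libraries of the same genotype differed widely. The wt libraries held 32.1%, 41.6% and 43.7%. In nip2_nip3 the values were 3.86%, 39.3% and 29.9%, and in nip3_qe20 they were 30.9% and 4.12%. The same libraries that were low here were high in CELE45, a SINE family. In the 5 libraries with over 20% of repeat counts on CELE45, the share of the families examined was 3.86% to 19.8%. In the 15 others it was 29.9% to 50.4%. Those 5 libraries came from 5 of the 8 genotypes, 1 library each from nip1_nip2_nip3, nip2_nip3, nip2_tb1609, nip3_qe17 and nip3_qe20. Taking CELE45 out of the total left the 5 libraries at 8.36% to 29.2% and the others at 31.4% to 57.7%. The part of CELE45 in this difference was not tested. Both nip3_qe20 libraries lay below all 3 wt libraries in this share, and every other mutant genotype tested overlapped wt. The exact test for nip3_qe20 reached the smallest p its design allows, 0.2 (adjusted p = 0.433). With so few libraries, a test with that lower limit cannot decide whether the genotype differs from wt.

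**Figure D1:**
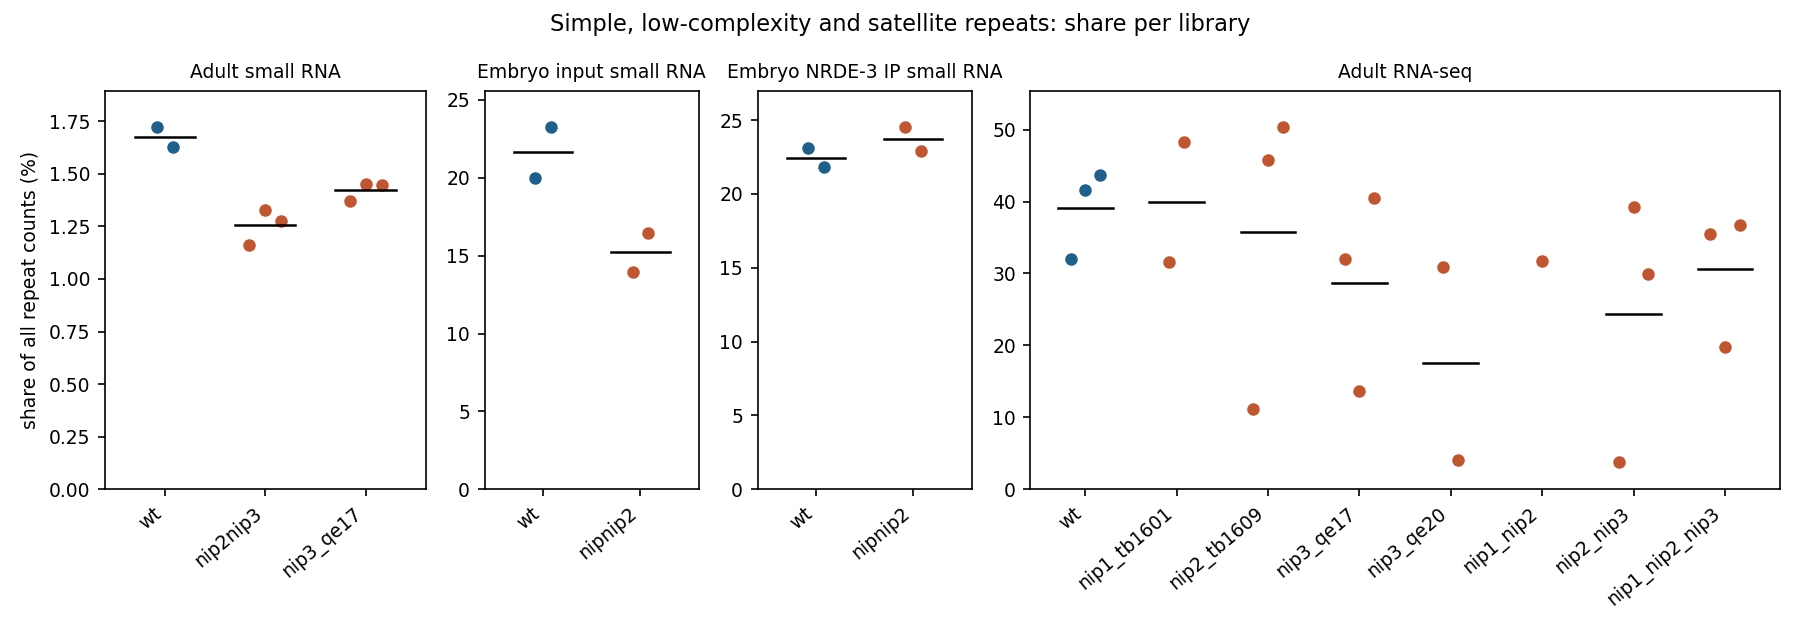
Share of all repeat counts (%) held by simple, low-complexity and satellite repeats in each of the 36 libraries, 1 point per library, with a line at the mean of each group of 2 or 3 and a separate scale for each panel. Adult small RNA lies between 1.16% and 1.72%, embryo libraries between 14.0% and 24.5%, and RNA-seq between 3.86% and 50.4%.

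Different families carried the share in each data set. In adult small RNA, satellites held 60.3% to 72.0% of these counts and the 3 embryo pairs together a small part. In embryo input the 3-base pair held 27.1% to 36.8%, the 4-base pair 36.0% to 40.4% and the 5-base pair 16.8% to 24.8%, and in the IP they held 26.0% to 44.8%, 33.6% to 52.9% and 10.8% to 17.4%. In RNA-seq the (CCCCAG)n family held 11.6% to 87.7%, with a median of 79.1%. The counts were concentrated throughout. The 3 leading families held 52.3% of these counts in adult small RNA, 60.8% in embryo input, 69.0% in the IP and 85.0% in RNA-seq, as means over libraries. By contrast, 30 of the 115 families had 0 counts in every adult small RNA library, 54 in every input, 65 in every IP and 33 in every RNA-seq library.

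**Figure D2:**
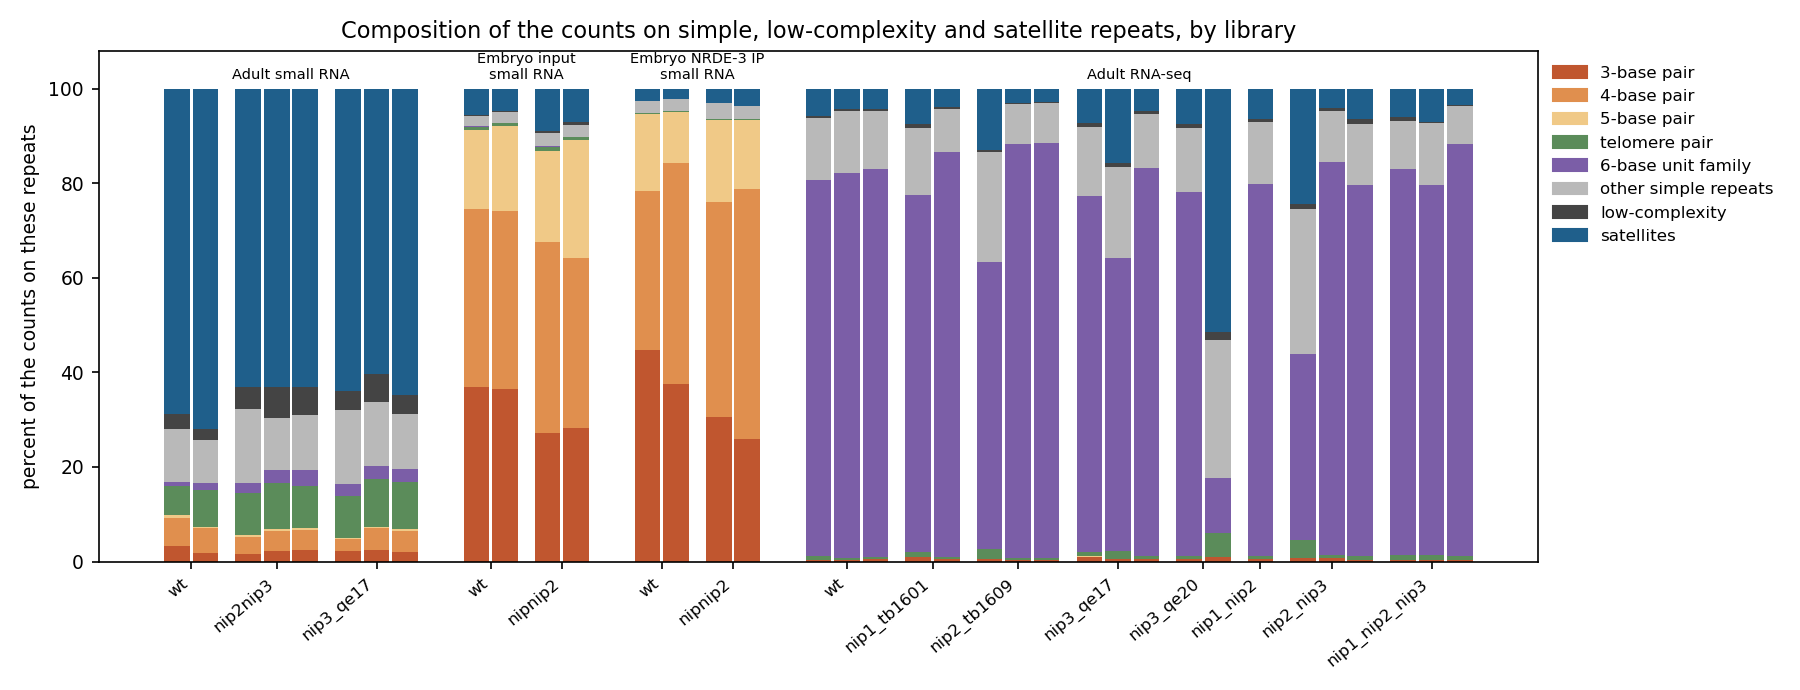
Composition of the counts on these repeats in each library (percent, stacked to 100), by repeat class. Adult small RNA is mostly satellite (60.3% to 72.0%), embryo libraries are mostly the 3 unit pairs, and RNA-seq is mostly the 6-base unit family except in nip3_qe20 replicate 2, where it holds 11.6%, and nip2_nip3 replicate 1, where it holds 39.3%.

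In adult small RNA, the comparisons with wt ask whether mutation of nip3 alone, or of nip2 and nip3, changes small RNAs on these repeats. Satellites held 1.19% and 1.17% of repeat counts in the wt libraries. They held 0.733%, 0.838% and 0.804% with nip2nip3, and 0.876%, 0.876% and 0.937% with nip3_qe17, so no mutant library reached a wt library. For tests on single families, counts were normalised with the gene table and fitted with edgeR. In nip2nip3, 17 of 33 families tested passed an adjusted p of 0.05, 5 higher and 12 lower than wt. Of all repeat rows 67.4% passed, 19.9% higher and 47.5% lower. In nip3_qe17 the numbers were 16 of 33, 4 higher and 12 lower, against 62.9% of all rows, 12.2% higher and 50.7% lower. These shares are not above the background. The families' median log2 fold changes of −0.40 and −0.34 stood beside −0.39 and −0.48 over all rows tested. The 2 comparisons share their wt libraries.

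RC123, a satellite with 700 copies on all 6 chromosomes and 389 of them within gene spans, gave the smallest p in both mutants. Its normalised counts scaled to library size (CPM) were 306 and 316 for wt, then 117, 115 and 109 for nip2nip3 and 114, 122 and 142 for nip3_qe17. The groups did not overlap, and the mutants sat at well under the wt level. RC123 fell by 1.45 on the log2 scale in nip2nip3 (SE 0.0978, adjusted p = 1.54e-07, edgeR quasi-likelihood test) and by 1.30 in nip3_qe17 (SE 0.0972, adjusted p = 3.71e-07). As a share of repeat counts, which needs no scaling, it went from 0.440% and 0.434% in wt to between 0.150% and 0.223% in the 6 mutant libraries.

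Other satellites fell with it. RCS5, with 234 copies, was at 15.1 and 11.8 CPM in wt and between 4.02 and 5.75 in all 6 mutant libraries. It fell by 1.48 on the log2 scale in nip2nip3 (adjusted p = 0.000127) and by 1.46 in nip3_qe17 (adjusted p = 0.000112). CeRep52, with 136 copies, was at 27.1 and 24.5 CPM in the wt libraries and between 7.93 and 13.3 in all 6 mutant libraries. It fell by 1.33 in nip2nip3 (adjusted p = 0.000351) and by 1.43 in nip3_qe17 (adjusted p = 0.000193). MINISAT1_CE, the most numerous satellite with 2523 copies, fell less, by 0.44 (adjusted p = 0.00706) and 0.38 (adjusted p = 0.0154). Among simple repeats, the (CCTG)n family fell by 1.59 and 1.93, and the (CCTA)n family by 0.93 and 0.95, both called in both mutants. The (CCTG)n family had 6.63 and 7.48 CPM in the wt libraries and at most 2.83 in a mutant library. With the factors taken from the repeat rows in place of the genes, (CCTA)n was no longer called in nip3_qe17.

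CeRep53 was the largest family of all in adult small RNA and did not follow RC123. It held 14.7% to 22.5% of the counts on these repeats, and 28 of its 31 copies lie on chromosome II, in arrays such as chrII:3943186-3946594 and chrII:8288432-8292972, both outside annotated genes. The wt libraries had 176 and 204 CPM, those of nip2nip3 169, 202 and 208, and those of nip3_qe17 190, 169 and 167. The groups overlapped, and neither mutant passed the test (log2 fold change 0.03, SE 0.111, adjusted p = 0.86 in nip2nip3, and −0.12, SE 0.111, adjusted p = 0.362 in nip3_qe17). Per kilobase of annotated copies, CeRep53 had 99.2 counts, against 10.9 for RC123 and 3.48 for MINISAT1_CE.

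A few families rose. The (TTAGGC)n family, with 764 copies, was at 26.2 and 25.1 CPM in the wt libraries. In nip2nip3 it was at 35.1, 43.8 and 39.8, and in nip3_qe17 at 31.6, 45.5 and 35.4. It rose by 0.63 on the log2 scale in nip2nip3 (SE 0.166, adjusted p = 0.00598) and by 0.56 in nip3_qe17 (SE 0.166, adjusted p = 0.0117). Its reverse complement (GCCTAA)n, with 729 copies, did not pass in either mutant (−0.40, adjusted p = 0.0637, and −0.19, adjusted p = 0.362). The ratio of (TTAGGC)n to (GCCTAA)n counts was 0.568 and 0.377 for wt. For nip2nip3 it was 0.945, 0.912 and 0.927, and for nip3_qe17 0.686, 1.02 and 0.612, all above wt. The satellite RCA1 rose by 1.31 and 1.03, the (CCCCAG)n family by 0.68 and 0.62, and the (ATG)n family by 0.72 and 0.86, each called in both mutants. GA-rich, a low-complexity family with 5 copies, rose by 0.66 in nip2nip3 (adjusted p = 0.0259), and its change of 0.35 in nip3_qe17 was not called. These rises are the part of the adult result that depends most on scaling. With library totals in place of the factors, (TTAGGC)n and (CCCCAG)n were no longer called in either mutant, (ATG)n and GA-rich were not called in nip2nip3, and RCA1 was not called in nip3_qe17, although none changed direction. In nip3_qe17, (TTAGGC)n was also not called without wt replicate 1 (0.59) or without wt replicate 3 (0.54).

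Compared directly, nip2nip3 and nip3_qe17 gave 0 called families of 33 by edgeR, against 15.8% of all rows (10.4% higher and 5.43% lower), with 1 at an unadjusted p under 0.05 and 0 by DESeq2. Leaving out nip3_qe17 replicate 2 gave 1.

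**Figure D3:**
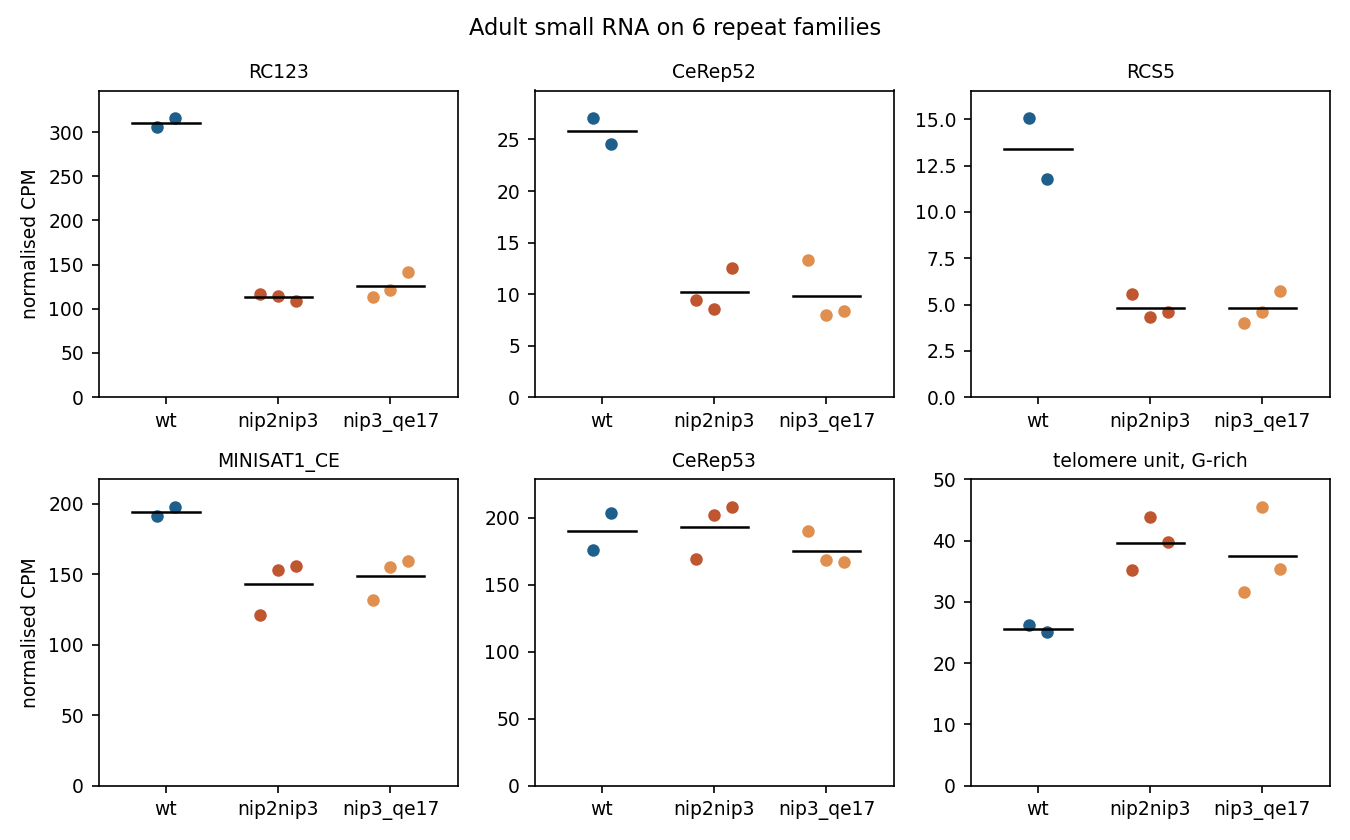
Normalised CPM (linear axis from 0) of 6 repeat families in adult small RNA, 1 point per library with a line at the group mean, for wt (n = 2), nip2nip3 (n = 3) and nip3_qe17 (n = 3). RC123, CeRep52 and RCS5 are lower in every mutant library, CeRep53 overlaps wt, and (TTAGGC)n (telomere unit, G-rich) is higher in every mutant library.

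In embryos the 6 families of the 3 unit pairs held nearly all of the counts on these repeats. They held 91.3% and 92.2% in wt input, 86.7% and 89.1% in nipnip2 input, and 93.4% to 95.1% in the 4 IP libraries. As a share of all repeat counts this was 18.3% and 21.5% in wt input, 12.1% and 14.7% in nipnip2 input, 21.9% and 20.8% in wt IP and 22.9% and 21.4% in nipnip2 IP. All the remaining families together held 1.74% to 1.86% in input and 1.07% to 1.63% in the IP. The difference in share between the genotypes in input therefore lay in the 6 families. In adult small RNA the same 3 pairs held at most 0.0574%, 0.102% and 0.0104% of repeat counts. Adult and embryo libraries differ in stage and in their tables, so these levels are set side by side without a test.

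The 6 families are small. They have 21 annotated copies in all, between 1 and 5 each, and their counts per kilobase were far above those of satellites. In embryo input the (TCG)n family had 14743 counts per kilobase of its 307 bases, and RC123 had 3.79. Both families of each pair had counts. The (TCCA)n to (TGGA)n ratio was 1.03 to 1.09 in input and at most 1.05 in the IP. The (TCG)n to (CGA)n ratio was 2.27 to 2.56 in input and 2.14 to 2.55 in the IP. The (GATTG)n to (CAATC)n ratio was at least 1.90 in input and 1.24 to 1.37 in the IP, so it was lower in the IP, with no overlap. The families of a pair differ in annotated length, with 580 bases for (GATTG)n and 293 for (CAATC)n. These ratios are not corrected for length. Strand settings are not given, so the ratios do not show the strand of the RNA.

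Of the 21 copies, 10 lie in inverted arrangement, defined here as a copy with a reverse complement copy of nearly equal length within 10000 bases. On chromosome II, the (GATTG)n copy at chrII:7446180-7446482 and the (CGA)n copy at chrII:7446493-7446559 face the (TCG)n copy at chrII:7451008-7451074 and the (CAATC)n copy at chrII:7451085-7451377. Both right-hand copies lie within the span of the pseudogene Y9D1A.2. On chromosome IV, (TGGA)n at chrIV:11608436-11608494 and (CGA)n at chrIV:11609971-11610014 face (TCG)n at chrIV:11616867-11616913 and (TCCA)n at chrIV:11618390-11618448. The inner copies lie within the pseudogenes Y24F12A.3 and Y24F12A.4. Another pair, of (TGGA)n and (TCCA)n with 56 bases each, lies on chromosome I, 3946 bases apart, with its right-hand copy in the pseudogene H15N14.4. Among all other simple families except the telomere unit, 25 of 742 copies lie in such an arrangement, and among the telomere unit families 111 of 1493. The search was made after the counts were seen.

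**Figure D4:**
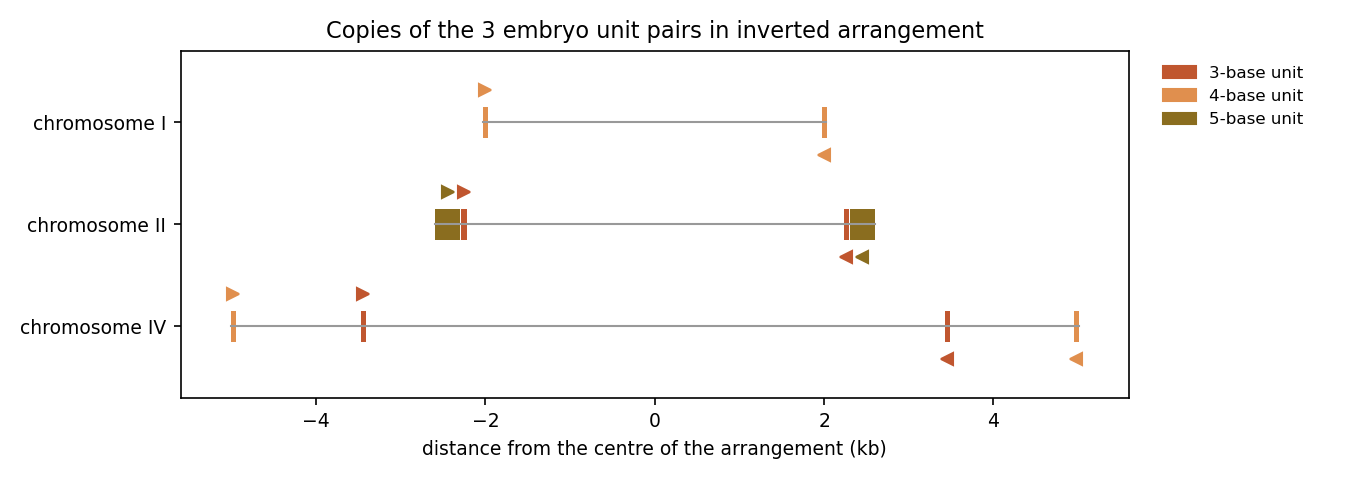
Positions of the 10 copies in inverted arrangement, as distance in kb from the centre of each arrangement, on chromosomes I, II and IV. Bars are copies drawn to scale with a minimum width, coloured by unit length, and facing arrowheads mark a unit and its reverse complement.

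Some of the remaining copies lie in genes with many small RNAs in the gene table. Whether gene and family counts hold the same reads was not examined. Values here are CPM of all gene counts of the library, without further factors. The factors used for the families were 0.822 and 0.820 in wt input and 1.287 and 1.154 in nipnip2 input. In the IP they were 0.532 and 0.499 in wt and 1.999 and 1.887 in nipnip2. Dividing by them would lower nipnip2 relative to wt, so the overlaps given here hold for unscaled values only. H37A05.4 on chromosome V, which spans a (TCG)n copy at chrV:13647424-13647530, was at 5727 and 6692 in wt input and 4283 and 5950 in nipnip2 input, which overlapped. In the IP it was at 3833 and 3322 in wt and 3531 and 3532 in nipnip2, and in adults at 12.3 to 47.1. Y46H3C.5 on chromosome V, which spans a (TCCA)n copy at chrV:1692200-1692424, was at 1263 and 1111 in wt input and 401 and 604 in nipnip2 input, without overlap. In the IP it was at 1261 and 878 in wt and 803 and 1004 in nipnip2, which overlapped. By contrast, spt-5, a transcription elongation factor gene that spans a (CGA)n copy, had far fewer. It was at 24.7 and 24.1 in wt input and 53.7 and 54.8 in nipnip2 input. In the IP it was at 0.443 and 1.34 in wt, from 2 and 8 counts, and 26.2 and 23.7 in nipnip2. The genotypes overlapped in neither. These gene values were not tested and do not show which copy the family counts came from.

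In embryo input, 11 families fell in nipnip2, and the 3-base pair had the smallest p. As a share of repeat counts (TCG)n was at 5.22% and 6.08% in wt and 2.63% and 3.35% in nipnip2, and (CGA)n was at 2.15% and 2.43% against 1.16% and 1.31%. Neither overlapped. These were 11 of 25 families tested in edgeR, all lower, against 14.6% of all repeat rows (1.12% higher and 13.5% lower). The (CGA)n family fell by 1.19 on the log2 scale (SE 0.159, adjusted p = 1.07e-08), and the (TCG)n family fell by 1.22 (SE 0.174, adjusted p = 7.34e-08). The (CGG)n family, with 3 copies, went from 141 and 203 CPM in wt to 72.0 and 82.9 in nipnip2 and fell (SE 0.178 on the log2 scale, adjusted p = 2.89e-07). The 4-base families (TCCA)n and (TGGA)n fell by 0.81 and 0.78, and of the 5-base families (CAATC)n fell by 0.46 (adjusted p = 0.0422), whereas (GATTG)n, at −0.46, was not called (adjusted p = 0.0635). RC123 was not called here (279 and 276 CPM in nipnip2 against 246 and 278 in wt, log2 fold change 0.08, SE 0.146, adjusted p = 0.863). With library totals the input gave 6 higher and 4 lower of 28 families in place of 0 and 11 of 25, with a median of all rows of 0.51, and (TCCA)n and (TGGA)n were no longer called, while (CGA)n, (TCG)n and (CGG)n stayed called at −0.63, −0.66 and −0.59. The number called was 2 without wt library 1, 7 without wt library 2 and 3 without nipnip2 library 1.

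In the IP, 11 of 19 families tested were called, all lower in nipnip2, against 30.3% of all rows. This direction rests on the scaling to genes, for with library totals 7 of 18 families were higher and 0 lower, with a median of all rows of 1.497. The (TCG)n family fell by 2.22 (SE 0.251, adjusted p = 0.000536) and (CGA)n by 2.26 (SE 0.264, adjusted p = 0.000536), and with library totals they were at −0.31 and −0.34 and not called. The (GATTG)n family fell by 1.49, CeRep55 by 1.72 and the (ACTCG)n family by 1.495 with gene factors, and they turned to 0.42, 0.18 and 0.42 with library totals. As shares of repeat counts, (TCG)n was at 7.395% and 5.599% in wt IP and 5.18% and 4.28% in nipnip2 IP, and (CGA)n was at 2.95% and 2.61% against 2.31% and 1.68%. The 4-base pair moved the other way, with (TCCA)n at 3.98% and 5.11% against 5.63% and 6.09% and (TGGA)n at 3.78% and 5.08% against 5.53% and 6.02%. The genotypes did not overlap in these 4 families. Without nipnip2 library 1, 3 families were called.

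The IP was compared with input in each genotype. By share of repeat counts, 5 of 25 families averaging 20 counts or more were above input in every IP library of both genotypes, and 13 were below. The 5 were (ACTCG)n, CeRep54, CeRep55, MINISAT4_CB and (CGA)n. The same count was not made over all repeat rows, so it does not set these families apart from other repeats. Transposable elements shifted too. In wt, LTR elements held on average 29.8% of repeat counts in input and 58.4% in the IP, and DNA elements 29.2% and 4.88%. The (ACTCG)n family, whose 1 copy of 73 bases lies at chrV:6038970-6039042 outside annotated genes, was at 0.0643% and 0.0555% in wt input and 0.394% and 0.427% in wt IP. In nipnip2 it was at 0.0393% and 0.0466% in input and 0.551% and 0.452% in the IP. CeRep54, a satellite with 14 copies, was at 0.00863% and 0.00749% in wt input and 0.168% and 0.120% in wt IP, and in nipnip2 at 0.00199% and 0.00870% against 0.237% and 0.203%. CeRep55, with 55 copies of which 51 lie outside gene spans, was at 0.04995% and 0.0444% in wt input and 0.235% and 0.139% in wt IP. In nipnip2, CeRep55 was at 0.0293% and 0.0272% in input and 0.167% and 0.205% in the IP. All 3 stood clear of the input in both genotypes.

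RC123, CeRep53 and the telomere unit held a smaller share in the IP by the same measure. RC123 was at 0.386% and 0.437% in wt input and 0.0135% and 0.0137% in wt IP, and at 0.549% and 0.524% against 0.0458% and 0.0309% in nipnip2. CeRep53 was at 0.234% and 0.221% in wt input and 0.0154% and 0.0119% in wt IP. The (TTAGGC)n family was at 0.0606% and 0.0614% in wt input and 0.0132% and 0.00694% in wt IP, and in nipnip2 at 0.0684% and 0.0688% against 0.0273% and 0.0218%. GA-rich had 0 counts in both wt IP libraries, which allows a share of up to 0.00275% and 0.00189% (3 counts per library, counting error only), against 0.0449% and 0.0662% in input, so it was at least 16.3-fold lower. In nipnip2 IP it was at 0.00557% and 0.00441%.

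The same comparison in edgeR, with gene factors, called 19 families higher and 4 lower of 30 in wt, against 68.6% of all rows (40.5% higher and 28.1% lower). In nipnip2 it called 20 higher and 4 lower, against 76.8% (42.7% higher and 34.1% lower). With library totals, under which 32 families passed the low-count filter, the numbers became 4 higher and 27 lower in wt, and 5 higher and 23 lower in nipnip2, with medians of all rows of −4.84 and −3.96. The increase of (ACTCG)n, CeRep54 and CeRep55 and the decrease of RC123 had the same direction and passed under both scalings. In wt, (ACTCG)n was higher in the IP by 6.79 on the log2 scale (SE 0.238, adjusted p = 2.02e-10), and by 1.73 with library totals. CeRep54 was higher by 8.11 (SE 0.318, adjusted p = 2.64e-10), and by 3.08 with library totals. RC123 fell by 0.87 (SE 0.227, adjusted p = 0.004), and by 5.91 with library totals. The 3-base pair did not keep its direction, with (CGA)n and (TCG)n at 4.29 and 4.203 in wt with gene factors and −0.76 and −0.85 with library totals. CeRep53 was at −0.05 in wt with gene factors and was not called. For (TTAGGC)n, 1.32 with gene factors (adjusted p = 0.00233, edgeR) stood against a lower share of repeat counts in the IP. A test of whether the enrichment differed between the genotypes called 0 of 30 families by edgeR, against 4 of 185 rows in all, and the smallest p among the families was that of (CGA)n (log2 difference −0.93, SE 0.306, p unadjusted = 0.00966, adjusted p = 0.168).

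In RNA-seq the (CCCCAG)n family led the counts on these repeats in 19 of 20 libraries, and CeRep55 led in nip3_qe20 replicate 2. It has 11 copies, all in protein-coding gene spans, and 8 of them, from chrIV:1721016-1721155 to chrIV:1722771-1722921, lie in epic-2 on chromosome IV. The others lie in ZK84.1, idpc-4 and F47B8.14. Its counts ran from 351 to 37824, with a median of 17572. Per 1000 transposable element counts, scaled with the factors, it was at 354, 518 and 508 in wt, 269 and 670 in nip1_tb1601, 113, 826 and 877 in nip2_tb1609, and 263, 104 and 453 in nip3_qe17. In nip3_qe20 it was at 278 and 7.74, in nip2_nip3 at 33.8, 465 and 282, and in nip1_nip2_nip3 at 324, 276 and 556. All of the mutant genotypes but nip3_qe20 overlapped wt, and none passed the test, with the smallest adjusted p at 0.497 in nip3_qe20 (log2 fold change −1.69, SE 1.23). The lowest value of nip2_nip3, nip2_tb1609, nip3_qe17, nip3_qe20 and nip1_nip2_nip3 was in each case the library with over 20% of repeat counts on CELE45.

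The next family, (CCG)n, has 2 copies, in idpa-1 on chromosome III and in ule-3 on chromosome V, and held 7.60% of the counts on these repeats on average. It was at 32.9, 58.7 and 45.8 per 1000 transposable element counts in wt. In a count not made over all repeat rows, it lay below the lowest wt library in 13 of 16 mutant libraries. Its log2 fold change was −1.08 in nip1_nip2_nip3, −1.09 in nip2_nip3, −1.09 in nip3_qe17 and −1.30 in nip3_qe20, with adjusted p from 0.224 to 0.313, so none was called. The (CAT)n family, with 10 of 11 copies in protein-coding gene spans including mex-1, pro-2 and eel-1, and the (CAG)n family followed, at 45.0 to 535 and 68.0 to 483 counts. The telomere units were detected in every library, with (TTAGGC)n at 55.5 to 162 counts, and neither orientation was called in any genotype. The 6 families that lead embryo small RNA were rare, with the 3-base pair at most at 0.335%, the 4-base pair at most at 0.0144% and the 5-base pair at most at 0.00642% of repeat counts.

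Against wt, the tests on 32 families called 1 in nip2_nip3 and 1 in nip3_qe20, and 0 in nip1_nip2_nip3, nip3_qe17, nip2_tb1609 and nip1_tb1601. Of all repeat rows, 4.64% were called in nip2_nip3 (3.09% higher and 1.55% lower) and 5.15%, all higher, in nip3_qe20. In nip1_nip2_nip3 it was 3.61% (3.09% higher and 0.515% lower), in nip3_qe17 1.03%, in nip2_tb1609 0.515% and in nip1_tb1601 1.03%. At an unadjusted p under 0.05 there were 3 families in nip2_nip3, 6 in nip3_qe20, 8 in nip1_nip2_nip3, 6 in nip3_qe17, 0 in nip2_tb1609 and 1 in nip1_tb1601, and DESeq2 called 1 in nip1_nip2_nip3 and 2 in nip3_qe20. The 6 comparisons share the wt libraries. Without the 5 libraries high in CELE45, edgeR called 0 in nip2_nip3 and 1 in nip3_qe20, and 7 in nip1_nip2_nip3, 2 in nip3_qe17, 0 in nip2_tb1609 and 1 in nip1_tb1601. In those fits 36 of these families and 199 repeat rows in all were tested. Over all rows, 38 were called in nip1_nip2_nip3, 13 in nip3_qe17, 8 in nip3_qe20 and 4 in nip1_tb1601. The 7 families in nip1_nip2_nip3 were thus called at about the share of all rows. The 7 were MINISAT3_CB, MINISAT4_CB, (ATG)n and (CCG)n, which were lower, and CT-rich, (ATGGTG)n and (TTG)n, which were higher. The (CCG)n family was then at −1.45 (SE 0.437, adjusted p = 0.0413).

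RC123 was the 1 family called in nip2_nip3, where it fell by 0.95 (SE 0.249, adjusted p = 0.0369). It was at 2.62, 2.85 and 2.61 per 1000 transposable element counts in wt, 1.08, 1.49 and 1.62 in nip2_nip3, 1.84, 1.61 and 1.4996 in nip3_qe17, 1.43 and 1.68 in nip3_qe20, and 2.40, 1.36 and 1.36 in nip1_nip2_nip3. In nip2_tb1609 it was at 1.56, 2.45 and 2.56, and in nip1_tb1601 at 2.28 and 2.41. All 16 mutant libraries lay below all 3 wt libraries, which was so for 1 of 25 families averaging 20 counts or more, and no family lay above in all 16. RCS5, which fell in adult small RNA as RC123 did, lay above all 3 wt libraries (0.459, 0.727 and 0.734) in 15 of 16 mutant libraries and below in 0, at 0.492 to 1.63. RCS5 was not called in any genotype, with log2 fold changes of 0.36 to 0.81 and adjusted p of 0.185 to 0.914 (edgeR). Both families were singled out after their values were seen. Such counts of libraries were not made over all repeat rows, and every mutant library was set against the same 3 wt libraries. Whether RC123 or RCS5 stands out among all repeats is therefore not known. For RC123, the log2 fold changes outside nip2_nip3 were between −0.20 in nip1_tb1601 and −0.79 in nip3_qe20, and were not called. The call in nip2_nip3 was lost under 11 of 15 alternatives, among them leaving out any wt library, nip2_nip3 replicate 1 or nip2_nip3 replicate 2, where it was between −0.82 and −0.995. RC123 was thus called lower in adult small RNA of nip2nip3, and in RNA of nip2_nip3 by a call that most alternatives did not keep. The labels write the 2 genotypes differently and do not say whether they are the same strain.

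CeRep55 was the 1 family called in nip3_qe20. It was at 1.76, 2.02 and 2.03 per 1000 transposable element counts in wt and 5.597 and 14.3 in nip3_qe20, and rose by 2.36 (SE 0.489, adjusted p = 0.0208). The library at 14.3 is the one high in CELE45. Without it the log2 fold change was 1.51 and not called, whereas without all 5 such libraries it was 1.57 and called. Leaving out any 1 wt library also ended the call, with values of 2.29 to 2.40. In nip3_qe17 CeRep55 was at 2.08, 4.34 and 2.14, with a log2 fold change of 0.56 (SE 0.445, adjusted p = 0.665).

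**Figure D5:**
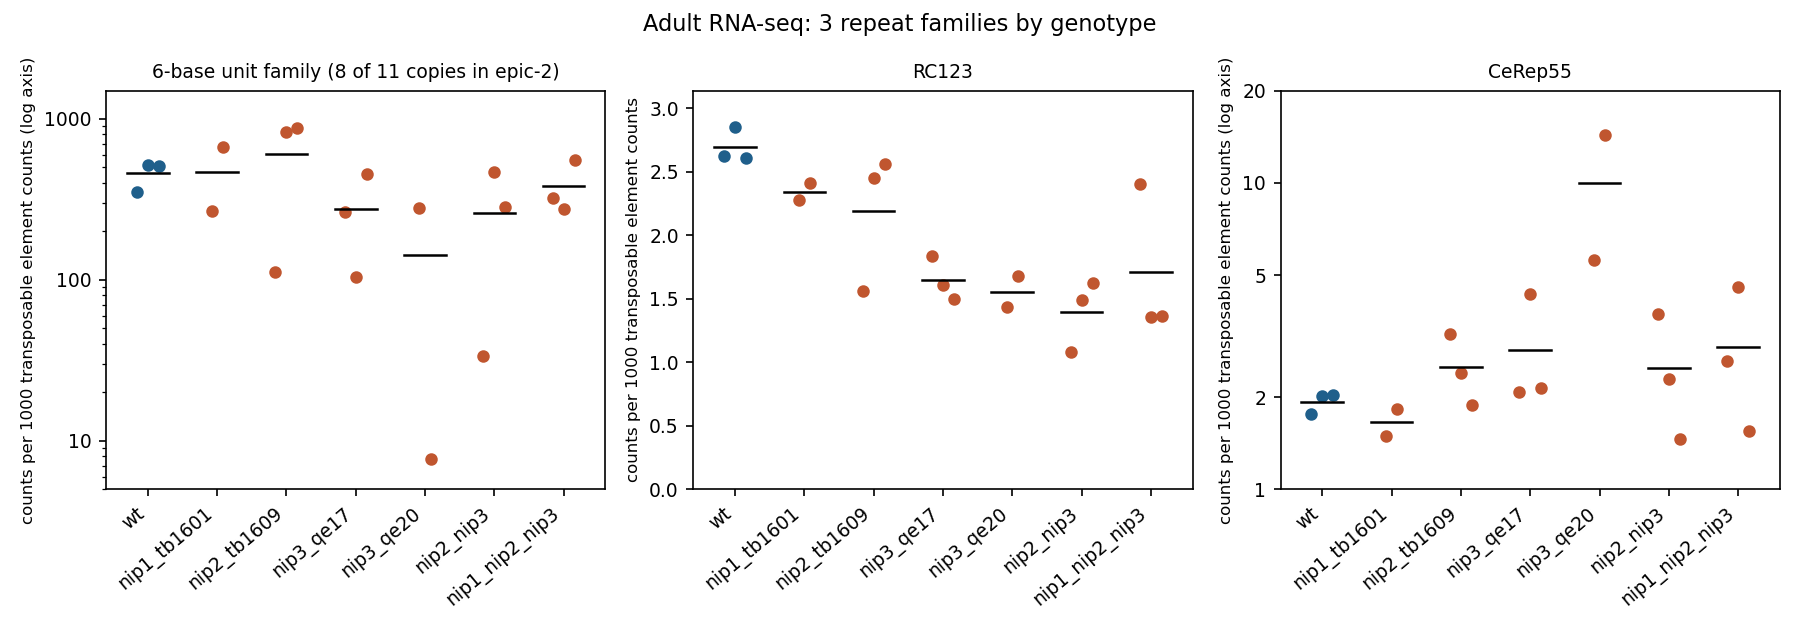
Counts per 1000 transposable element counts, scaled with the factors, for the 6-base unit family (CCCCAG)n (log axis), RC123 (linear axis from 0) and CeRep55 (log axis) in adult RNA-seq, 1 point per library and a line at the mean of each genotype. RC123 is between 1.08 and 2.56 in the 16 mutant libraries and between 2.61 and 2.85 in wt, and (CCCCAG)n spans 7.74 to 877.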

How the data were processed

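Small RNA and long RNA were sequenced in 36 libraries. Per the submitters' processing notes, the tools were cutadapt, STAR, featureCounts and DESeq2, with the ce11 build; versions, counting options and strand settings are not given in the sources used here. Per the labels, small RNA libraries were 5′-independent. The deposited embryo gene tables hold raw counts, and the deposited adult gene table and all repeat tables hold estimated counts with fractions, which were rounded before testing. The RNA-seq table gives copies and coordinates.

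Families were fitted with edgeR 4.0.16 in R 4.3.3 (filterByExpr, TMM, quasi-likelihood test, Benjamini-Hochberg over all repeat rows, called under 0.05). Small RNA was scaled with library sizes and TMM factors of the gene tables, and RNA-seq with those of its transposable element rows. The adult fit held all 8 libraries and the RNA-seq fit 19, leaving out nip1_nip2. Embryo input and IP were fitted apart, and together for IP against input. Shares were tested with exact permutation tests (scipy 1.17.1), two-sided. Intervals and limits cover counting error only. Fits were tested on simulated data.

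The deposited embryo headers (wt1, wt2, nip1nip1_1, nip1nip2_2) match no sample number of the labels, so columns were used by genotype only. Gene spans came from RefSeq (WBcel235). The families, lists and tests were chosen with earlier results of these data known. Families named are the 10 with the largest share per data set, satellites averaging 20 counts, the telomere unit, and per comparison the 5 called with the smallest p per direction among those averaging 20 counts and without overlap of groups. Families called without the libraries high in CELE45, RNA families above or below wt in all mutants, and genes around copies were picked with their values in view. The alternatives tried were DESeq2 1.42.0, other scalings and filters, fits of only the groups compared, a replicate block and each library left out.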

Additional observations from a re-analysis of the deposited data

How the results depend on the processing

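Of 280 recomputed totals and shares, 228 stayed near the main value, with totals within 1.5 times the main count and shares within the spread between libraries. Direction was not part of this rule, so a total could stay near while its split into higher and lower changed. Of 601 values for named families, 532 kept both their direction and their call. The 7 named values that turned did so with library totals: in the IP of nipnip2 (GATTG)n to 0.42, (ACTCG)n to 0.42 and CeRep55 to 0.18, and for IP against input (CGA)n to −0.76 and (TCG)n to −0.85 in wt, and (CGA)n to −0.48 and (CGG)n to −0.74 in nipnip2. Depth limits families under 20 counts, and the split of embryo calls into higher and lower moved with the scaling. In input (CGA)n, (TCG)n and (CGG)n, and for IP against input (ACTCG)n, CeRep54, CeRep55 and RC123, kept their direction and call with library totals.

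For nip2nip3 against wt, no low-count filter gave 27 families called, against 17 in the main fit. Except for the fits without libraries high in CELE45, the share of all repeat rows called was not taken for the alternatives. Their counts therefore do not compare these families with other repeats. In embryo input, TMM over transposable elements gave 7, a mean of at least 50 counts 7, DESeq2 5 and 1 fit of all 8 embryo libraries (added after the data were seen) 3. In the IP, library totals gave 7 and TMM over repeat rows 2. A mean of at least 50 counts gave 12 for IP against input in each genotype. In RNA-seq, nip1_nip2_nip3 gave 1 with DESeq2, 3 with only the groups compared and 7 without libraries high in CELE45 (also added after the data were seen). For nip2_nip3, library totals, no filter, a mean of 50 counts, the replicate block, only the groups compared and the CELE45 restriction each gave 0. That restriction gave 2 in nip3_qe17 and 1 in nip1_tb1601. DESeq2 gave 2 and only the groups compared 0 in nip3_qe20, and only the groups compared gave 5 in nip1_tb1601.

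Leaving out 1 library gave 14 to 19 and 12 to 18 families in the adult mutants against wt, 0 to 1 between them, 2 to 11 in input, 3 to 12 in the IP, 18 to 22 for IP against input in each genotype, and 0 to 1 in nip1_nip2_nip3, nip2_nip3 and nip3_qe20.

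For the log2 ratio of the share, leaving out the largest family gave −0.52 and −0.30 in adult nip2nip3 and nip3_qe17 and 0.22 in the IP, simple repeats alone gave −0.20 and 0.0329 in the adults, and counts relative to gene counts gave −0.72, −0.68 and −0.0387 in the 3 adult comparisons, −0.24 in input, 0.23 in the IP, and −0.99 and −0.52 for IP against input in wt and nipnip2. The main values for IP against input were 0.0534 in wt and 0.639 in nipnip2, so relative to gene counts both turned. The main value of adult nip3_qe17 was −0.235, so it turned with simple repeats alone. Of the 280 totals and shares, 4 changed direction by more than the spread between libraries. Leaving out 1 library gave −3.25 to −0.34 in nip3_qe20, −0.31 to 0.30 in nip1_tb1601, −0.46 to 0.30 in nip2_tb1609, −1.21 to −0.18 in nip2_nip3, −0.78 to −0.11 in nip3_qe17, −0.50 to −0.11 in nip1_nip2_nip3 and −0.05 to 0.17 for IP against input in wt.

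It is not known whether replicate numbers pair the samples. Same-numbered adult libraries correlated at −0.00466 to 0.212 over 7 pairs, 4 of them over 0.1, with a median of 0.115. Adult libraries with different numbers correlated at −0.212 to 0.109, with a median of −0.0622, so same-numbered ones tended higher with overlap. Same-numbered RNA-seq libraries correlated at −0.844 to 0.73 over 52 pairs, with a median of 0.0414. Those with different numbers correlated at −0.734 to 0.844, with a median of −0.0136. Whether same-numbered libraries were prepared together was not tested. The replicate block gave 18, 17 and 0 called families in the 3 adult comparisons, 22 and 24 for IP against input (blocked on the column name that both tables share), and 0 in RNA-seq except 1 in nip3_qe20. For nipnip2 against wt within input or within IP, no fit with a block was made. No paired analysis was possible because the wt and nipnip2 column names of these tables match no replicate number of the labels.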

Other observations

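The 1 nip1_nip2 RNA-seq library entered no comparison. The families examined held 31.8% of its repeat counts and (CCCCAG)n 25.0%, and CELE45 held 8.36%. No family with at least 20 counts was above 2 times the highest wt library in share of repeat counts. RC123 was at 0.114% of repeat counts there and at 0.188%, 0.187% and 0.184% in wt. CeRep55 was at 0.243% there and at 0.127%, 0.132% and 0.142% in wt, a ratio of 1.71 to the highest wt library.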
